A study of Mus musculus with 4 samples.

Results

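Heparan sulfate (HS) and chondroitin sulfate (CS) proteoglycans were examined through 36 mouse genes, chosen by function: enzymes that build, modify and edit the sugar chains, and core proteins that carry them. All 36 were listed in the deposited table of 51826 genes, and 31 of them were among the 12578 genes with values. Xylt1, Chsy3, Hs3st1, Sulf1 and Gpc6 were listed without values. RNA came from MC38/gp100, a mouse tumour line, in 2 groups of 2 libraries: cells kept for 5 days with GSK3368712 at 1 µM, which blocks the type I enzymes that methylate protein arginine, and cells kept for 5 days with DMSO. All cells grew in RPMI medium with fetal bovine serum. The libraries of a group are called A and B after the table's columns. The labels do not say whether they came from separate cultures, so the p-values measure a spread that may be technical.

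A proteoglycan is a core protein with long sulfated sugar chains. Both kinds of chain start on a serine with the same short linker of xylose, galactose and glucuronic acid, and then either N-acetylglucosamine (HS) or N-acetylgalactosamine (CS) is added and the chain is extended. Sulfotransferases and epimerases then pattern the chain, and HS on syndecans and glypicans holds growth factors and chemokines at the cell surface and helps fibroblast growth factors bind their receptors. Dermatan sulfate (DS) is CS in which an epimerase has changed part of the uronic acid.

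Depth was low. Reads recovered from the deposited base means came to between 1000139 and 1096033 per library over 12575 genes, and the proteoglycan genes held 1625 to 1888 of them, 0.162% to 0.181%. The kit was stranded, but the sources used here do not give the strand on which reads were counted, and 18 of the 20 most abundant genes share exon sequence with a gene on the other strand, against 4216 of 12567 genes over all. Each of the 18 had a higher base mean than the gene opposite it, as at Tlcd1 (26726), which lies opposite the ribosomal protein gene Rpl23a (1228). Taking the 20 genes with the highest base means largely fixed this order in advance, so it says nothing about the strand counted. Whether the counting took the wrong strand of each transcript was not tested. If it did, values where exons overlap would hold reads of the other gene, and values elsewhere would hold antisense reads. Of the 31 proteoglycan genes with values, 8 had such an overlap: Chpf2 (with Smarcd3), Sulf2 (Ncoa3), Gpc1 (Ankmy1), Sdc3 (Gm12970 and Gm26716), Chsy1 (Gm26827), Hs6st1 (Gm37335), Fam20b (Gm19918) and B4galt7 (Gm15911). Of 10 epithelial markers, which a colon carcinoma line could express, Epcam, Krt18 and Esrp1 had no value, and the base means of Cdh1, Krt19, Cldn4 and Cldn7 lay between 0.449 and 2.27. Esrp2 (base mean 224), Krt8 (20.5) and Ovol1 (15.1) were higher, and all 3 have an opposite-strand exon. In these bulk libraries, fewer cells of a type and less RNA per cell cannot be told apart.

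Per length of exon, Chpf2, a factor of CS chain synthesis, stood at the top, followed by 4 core proteins. Base means per kilobase (kb) of annotated exon were 55.8 for Chpf2, 41.2 for the glypican Gpc1, 40.9 for the syndecan Sdc4, 36.3 for the syndecan Sdc1, 19.4 for the glypican Gpc4 and 18.6 for Chpf. The median over the 31 genes was 7.36 per kb, against 4.96 per kb over the 12567 genes with values and an exon length. At the low end were Csgalnact1, Ust (0.591 per kb), Cspg4 (0.617 per kb) and Ndst2 (2.13 per kb). These 4 lay under the base mean of 10 required for the test, so 27 genes were tested.

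**Figure D1:**
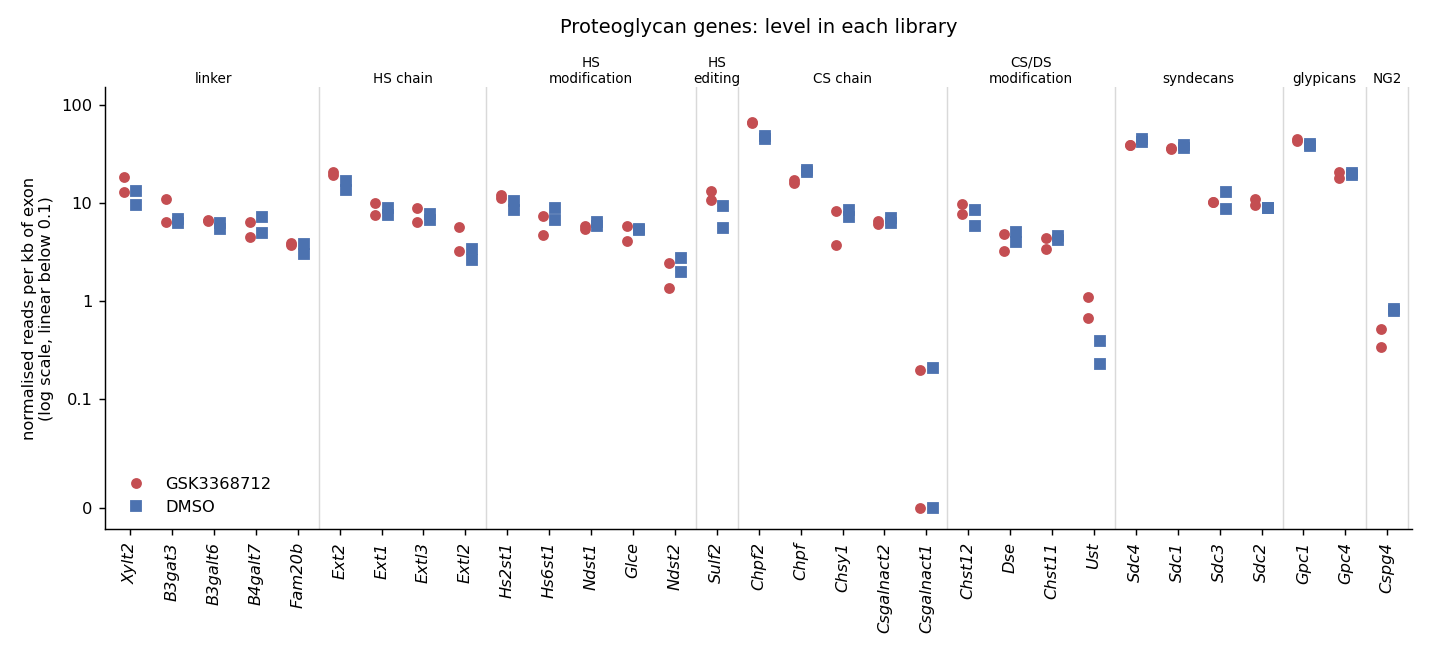
Normalised reads per kb of exon (logarithmic vertical axis, linear close to 0) for the 31 proteoglycan genes with values, grouped by role. Red circles are the 2 GSK3368712 libraries and blue squares the 2 DMSO libraries. Chpf2, Gpc1, Sdc4 and Sdc1 are the highest, and Csgalnact1, with 1 read in 1 library of each group, is the lowest.

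The comparison of GSK3368712 with DMSO asks which of these transcripts changed over 5 days of inhibitor. Of the 27 tested genes 1 rose, Chpf2, none fell, and 26 did not pass (limma across 8562 genes, calls at an adjusted p below 0.05). Without adjustment, 4 of the 27 had p under 0.05, against 12.2% of all tested genes. Over all tested genes 1.3% were called higher and 0.841% lower, so a single call among 27 is close to that background. Their median log2 fold change was 0.05, against 0.01 over all tested genes, with 14 positive and 13 negative. In 7 genes both inhibitor libraries lay above both DMSO libraries and in 4 below. Over all tested genes this was so in 20.7% (above) and 20.5% (below). Log2 fold changes are of normalised reads (reads divided by the authors' size factor) plus 1, and they understate changes of genes with few reads.

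Limma's intervals set limits on what was not called. Their spread came mostly from all genes together (182 degrees of freedom, against 2 from the libraries). Standard errors ran from 0.14 to 0.44 on the log2 scale, with a median of 0.24. The authors' standard errors were larger for each of the 27 genes, as for Chst11 (0.55, against 0.32) and Sdc2 (0.46, against 0.27). They would give wider intervals than those printed here. For 22 of the 27 genes limma's 95% interval lay wholly between -1 and 1. The exceptions were Sulf2 (0.29 to 1.16), Extl2 (-0.38 to 1.37), B3gat3 (-0.37 to 1.03), Chst12 (-0.43 to 1.00) and Chsy1 (-1.07 to 0.12).

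**Figure D2:**
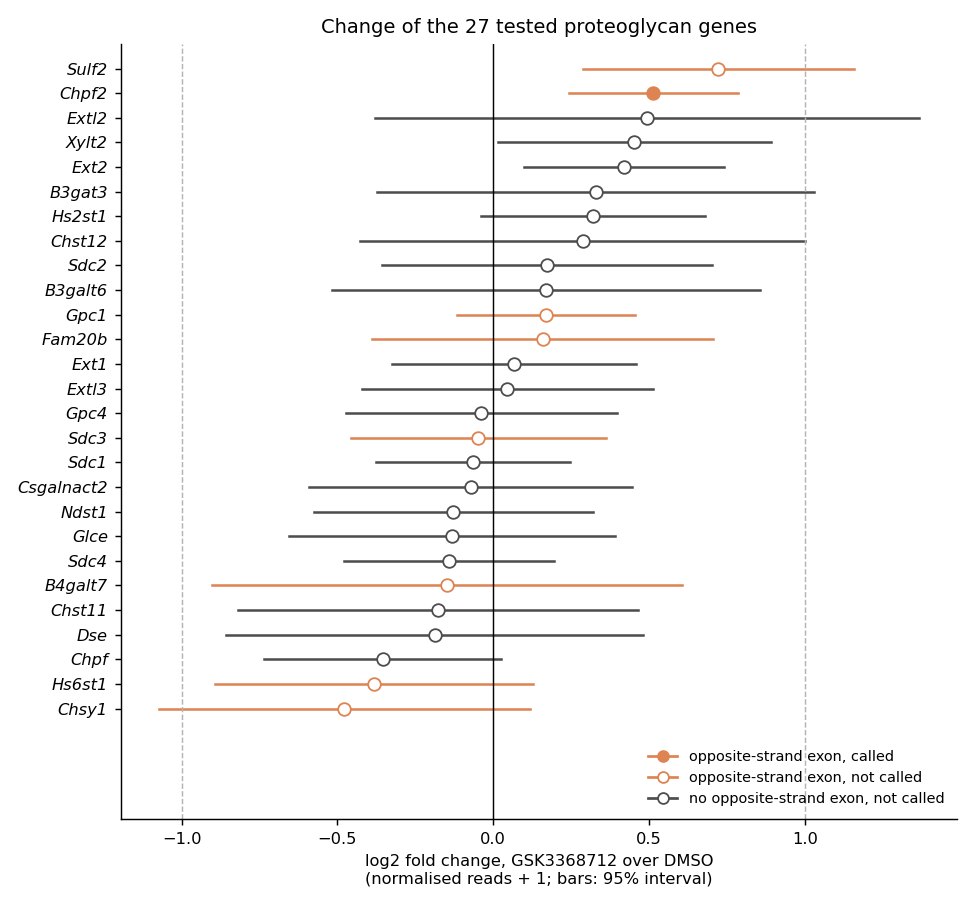
Log2 fold change (GSK3368712 over DMSO, normalised reads plus 1) of the 27 tested proteoglycan genes, with 95% intervals from limma as bars. Orange marks genes with an exon of another gene on the opposite strand, and the filled point marks Chpf2, the 1 gene called. Dashed lines stand at -1 and 1.

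Among the linker enzymes, Xylt2, which adds the first xylose to the core protein, was the most abundant per length of the 5 with values. It held 51.4 and 72.1 normalised reads in GSK3368712 A and B, against 52.0 and 37.6 in DMSO A and B. The groups overlapped, and the log2 fold change of 0.45 ± 0.22 (SE) did not pass (limma, adjusted p = 0.39). Its paralog Xylt1 had no value. The galactosyltransferases B4galt7 and B3galt6, the glucuronosyltransferase B3gat3 and the xylose kinase Fam20b had log2 fold changes between -0.15 and 0.33, and none passed. The summed reads of the 5 genes were 141 and 166 with the inhibitor, against 133 and 122 in DMSO. These sums did not overlap, but no test was made of them. Of all tested genes taken singly, 20.7% lay above in this way.

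Ext1 and Ext2 form the polymerase that alternates glucuronic acid and N-acetylglucosamine, Extl3 adds the first N-acetylglucosamine, and Extl2 can cap the linker and so limit chain growth. Ext2 held 151 and 141 normalised reads in the inhibitor libraries, against 121 and 98.1 in DMSO. Both inhibitor libraries lay above both DMSO libraries. The log2 fold change of 0.42 ± 0.16 did not pass (limma, adjusted p = 0.20). Its partner Ext1 held 79.2 and 60.1, against 61.0 and 71.0 in DMSO, with overlapping groups and a log2 fold change of 0.07 ± 0.20. All 4 genes had a positive log2 fold change, from 0.05 (Extl3) to 0.49 (Extl2), and that of Ext1 and Extl3 changed sign when a library was left out. Their summed reads were 288 and 265 with the inhibitor, against 231 and 228 in DMSO.

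Hs2st1, which puts sulfate on the uronic acid of HS, held 92.6 and 98.1 normalised reads with the inhibitor, against 84.3 and 68.9 in DMSO. The groups did not overlap, and the log2 fold change of 0.32 ± 0.18 did not pass (limma, adjusted p = 0.50). The N-deacetylase and N-sulfotransferase Ndst1 had a log2 fold change of -0.13 ± 0.23, the epimerase Glce of -0.13 ± 0.26 and the glucosamine sulfotransferase Hs6st1 of -0.38 ± 0.26. None of them passed. The log2 fold change of Hs6st1 was -0.69 without GSK3368712 A and -0.081 without GSK3368712 B. Ndst2, untested, held 6 and 11 whole reads with the inhibitor, against 10 and 12 in DMSO. The summed reads of these 5 genes were nearly level, at 214 and 218 with the inhibitor, against 218 and 215 in DMSO.

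Sulf2, a secreted sulfatase that removes sulfate from HS outside the cell, had the largest log2 fold change of the 27 tested genes. Its normalised reads were 77.2 and 63.1 in GSK3368712 A and B, against 32.3 and 54.3 in DMSO A and B. The groups did not overlap, but the DMSO libraries differed from each other by more than the inhibitor libraries did. The log2 fold change of 0.72 ± 0.22 did not pass (limma, adjusted p = 0.064). It passed without DMSO B (1.09; limma, adjusted p = 0.0080), where 2.08% of all genes were called higher and 0.642% lower. It passed too when testing was limited to a base mean of 40 or more (limma, adjusted p = 0.042), with 2.39% called higher and 1.73% lower. Leaving out DMSO A gave 0.36 (limma, adjusted p = 0.62), and in the authors' deposited table Sulf2 had an adjusted p of 1.00. Of its 5871 bp of exon, 154 bp past the stop codon (GRCm38 chromosome 2, 166073089 to 166073242) lie opposite Ncoa3, a nuclear receptor coactivator gene, whose log2 fold change was -0.21 ± 0.19. The other HS sulfatase gene, Sulf1, had no value.

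Chondroitin polymerisation can run on a chondroitin synthase together with a polymerising factor, and Chpf2 encodes one of these factors. Chpf2 (ENSMUSG00000038181.16, GRCm38 chromosome 5, 24586741 to 24594556, plus strand) held 360.1 and 374 normalised reads in GSK3368712 A and B, against 249 and 265 in DMSO A and B. The inhibitor libraries were both above the DMSO libraries, and the gap between groups was larger than the gap within either. The means were 367 ± 9.52 with the inhibitor and 257 ± 11.8 in DMSO (SD, n = 2 each), a fold of 1.43. On the log2 scale this was 0.51 ± 0.14 (SE; limma, adjusted p = 0.016). Its call was lost without DMSO A (limma, adjusted p = 0.054), without GSK3368712 A (0.25) and without GSK3368712 B (0.35), though the log2 fold change stayed between 0.47 and 0.56 over the libraries left out. With no minimum base mean the adjusted p was 0.19 (limma), with 0.0954% of all genes called higher and 0.0318% lower. In the authors' deposited table Chpf2 stood at 0.52 on the log2 scale, adjusted p 0.26, and none of the 14 proteoglycan genes with an adjusted p there passed, against 0.574% of all genes (0.353% higher, 0.221% lower).

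The rise at Chpf2 lies at a locus where 44.1% of the exon sequence is shared with the opposite strand. Its exons share 2466 bp with exons of Smarcd3, a subunit gene of the SWI/SNF chromatin remodelling complex, between 24591069 and 24594019 on chromosome 5. Of these, 1293 bp are coding exon of Chpf2 and 1173 bp lie past its last stop codon. Smarcd3 held 220.2 and 206 normalised reads with the inhibitor, against 111 and 149 in DMSO, and it too rose (log2 fold change 0.72 ± 0.15; limma, adjusted p = 0.00081). It was not called with no minimum base mean (limma, adjusted p = 0.14) or in the authors' deposited table (adjusted p 0.21). The call at Smarcd3 was lost without DMSO A (0.51; limma, adjusted p = 0.089) or without GSK3368712 A (0.67; limma, adjusted p = 0.090), with the log2 fold change still positive. Which of these genes the reads of the shared stretch came from cannot be told apart from this table, so the value printed for Chpf2 may in part be that of Smarcd3, and the reverse. Chpf2 was the 1 call among the 8 proteoglycan genes with an opposite-strand exon, against 1.88% higher and 1.02% lower over all such genes. Of the 19 tested proteoglycan genes with no opposite-strand exon, none was called by limma, against 0.941% higher and 0.734% lower over all such genes. Unadjusted p was under 0.05 for 2 of the 19, Ext2 and Xylt2, against 12.2% of all tested genes, and none of the 19 passed under the alternative fits.

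None of the other 3 tested CS chain genes passed, where 1.3% of all tested genes were called higher and 0.841% lower. The related factor Chpf held 60.7 and 65.1 normalised reads with the inhibitor, against 78.9 and 82.5 in DMSO, and the groups did not overlap. Its log2 fold change was -0.36 ± 0.19 and did not pass (limma, adjusted p = 0.47). Per length, reads of Chpf2 stood to those of Chpf as 4.09 and 3.96 with the inhibitor, against 2.17 and 2.22 in DMSO. This pair was compared after its values were seen, and no test was made of the ratio. The synthase Chsy1 held 15.4 and 34.1 reads with the inhibitor, against 29.6 and 35.5 in DMSO. Its log2 fold change of -0.48 ± 0.30 rested on GSK3368712 A, and without that library it was 0.07. Csgalnact2, which adds the first N-acetylgalactosamine, had -0.07 ± 0.26, and its paralog Csgalnact1 had 1 read in GSK3368712 B and 1 in DMSO B. The 4 genes other than Chpf2 summed to 111 and 133 with the inhibitor, against 143 and 157 in DMSO.

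**Figure D3:**
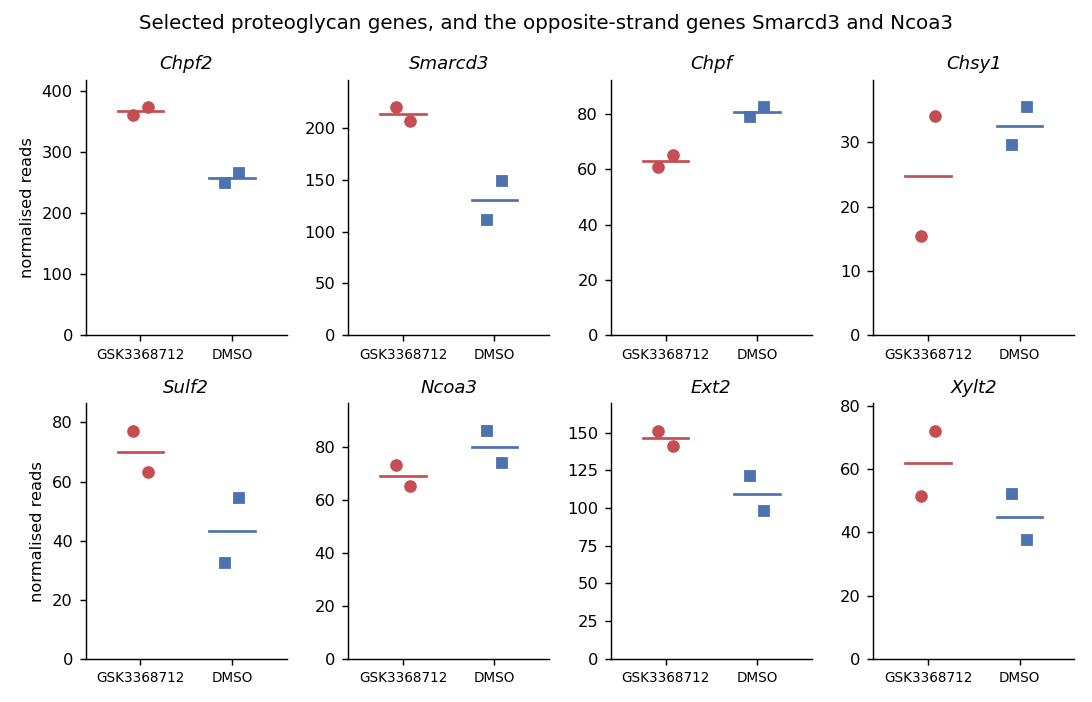
Normalised reads (vertical axes from 0, one scale per panel) of 6 proteoglycan genes and of the opposite-strand genes of Chpf2 (Smarcd3) and Sulf2 (Ncoa3). Points are libraries, with GSK3368712 on the left and DMSO on the right, and lines are group means. Chpf2 and Smarcd3 are both higher with the inhibitor, while Chpf is lower in both inhibitor libraries without passing the test.

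Among genes of CS and DS modification, the sulfotransferases Chst11 and Chst12, which put sulfate on the N-acetylgalactosamine, had log2 fold changes of -0.18 ± 0.32 and 0.29 ± 0.36, and the epimerase Dse, which makes DS, had -0.19 ± 0.34. None passed. Chst12, the most abundant of the 4 per length, held 22.6 and 18.0 normalised reads with the inhibitor, against 19.7 and 13.6 in DMSO, and the groups overlapped. Ust, a uronic acid sulfotransferase, held 3 and 5 whole reads with the inhibitor, against 2 and 1 in DMSO. It was not tested.

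None of the 6 tested syndecan and glypican genes passed, where 1.3% of all tested genes were called higher and 0.841% lower. Limma's 95% intervals of all 6 lay between -1 and 1, though the authors' standard errors were larger for each. Syndecans span the membrane and can carry HS and, in part, CS. Sdc1 held 136 and 134 normalised reads with the inhibitor, against 136 and 146 in DMSO. Sdc4 held 98.8 and 99.1, against 106 and 113 in DMSO. In both genes the inhibitor libraries lay below the DMSO libraries, in Sdc1 by under 1 read, with log2 fold changes of -0.06 ± 0.16 and -0.14 ± 0.17 (limma, adjusted p = 0.94 and 0.83). Sdc2 had 0.17 ± 0.27 and Sdc3 -0.05 ± 0.21, and that of Sdc3 was 0.24 without DMSO A. The syndecans summed to 333 and 326 with the inhibitor, against 350 and 341 in DMSO.

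Glypicans are held to the membrane by a lipid anchor and carry HS. Gpc1 held 229 and 220.3 normalised reads with the inhibitor, against 204 and 196 in DMSO. The groups did not overlap, and the log2 fold change of 0.17 ± 0.14 did not pass (limma, adjusted p = 0.72). Of its exon sequence 18.9%, all past the stop codon, lies opposite Ankmy1, which had no value. Gpc4 held 54.5 and 47.1, against 52.9 and 51.1 in DMSO, and its log2 fold change was -0.04 ± 0.22. Cspg4, the CS proteoglycan NG2, was untested, with 6 and 4 whole reads with the inhibitor, against 11 and 9 in DMSO.

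The supply and removal of chain components gave 1 call. These gene lists were written with earlier results of the same table known, so they are not independent evidence. Among enzymes and transporters that supply sugar nucleotides and the sulfate donor, 1 of 14 tested genes rose and none fell (median log2 fold change -0.04). Over all tested genes 1.3% were called higher and 0.841% lower. Unadjusted p was under 0.05 for 2 of the 14, against 12.2% of all tested genes. The called gene was Slc35b3, a transporter of the sulfate donor into the Golgi, which lies opposite 5033403F01Rik. It held 24.7 and 46.1 normalised reads with the inhibitor, against 16.1 and 14.6 in DMSO (log2 fold change 1.09 ± 0.33; limma, adjusted p = 0.032). With the fit on normalised reads plus 1, from which this fold change is taken, it just missed the threshold (limma, adjusted p = 0.052), and it missed it with voom (0.11) and with no minimum base mean (0.38). The inhibitor libraries were far apart, and without GSK3368712 B the log2 fold change was 0.65 (limma, adjusted p = 0.76). The call was lost also without DMSO A (limma, adjusted p = 0.11) or DMSO B (0.12). Of 12 tested genes of chain degradation none passed (median 0.03), with the smallest p at Hgsnat, a lysosomal acetyltransferase of HS breakdown (log2 fold change -1.17 ± 0.41; limma, adjusted p = 0.11). At unadjusted p under 0.05 there were 2 of the 12, against 12.2% of all tested genes.

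Among other proteoglycan core proteins none of 9 tested genes passed (median log2 fold change 0.07), and 2 had an unadjusted p under 0.05, against 12.2% of all tested genes. Perlecan (Hspg2), a basement membrane HS proteoglycan, held 633 and 566 normalised reads with the inhibitor, against 576 and 429 in DMSO, with overlapping groups (log2 fold change 0.27 ± 0.13; limma, adjusted p = 0.41). Esm1, a secreted proteoglycan also called endocan, had -0.47 ± 0.19 (limma, adjusted p = 0.22). Of 4 tested hyaluronan genes and 3 tested shedding proteases none passed, at an adjusted p or at an unadjusted p under 0.05. Of 6 further CS and DS enzymes only Chst14 was tested (-0.20 ± 0.38), and of 12 further HS enzymes 3 had values, none of them high enough to test.

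**Figure D4:**
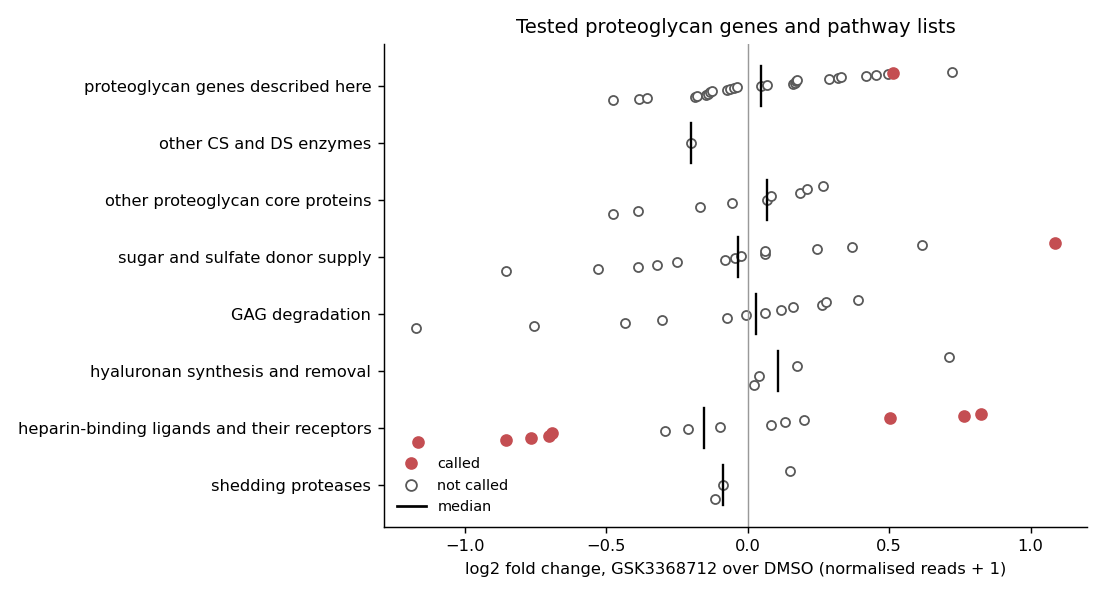
Log2 fold change (GSK3368712 over DMSO, normalised reads plus 1) of the tested genes described here and of the pathway lists, a point a gene. Red points passed the test, open points did not, and black lines are medians. Of the 8 calls among the heparin-binding ligands and receptors, 5 were known when that list was written.

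Among ligands that bind heparin or HS, and their receptors, 3 of 14 tested genes rose, 5 fell and 6 did not pass, where 1.3% of all tested genes were called higher and 0.841% lower. The list's choice in part fixed this count, since the changes of Vegfa, Thbs1, Pdgfa, Cxcl1 and Cxcl10 were known when the list was written. Of the other 9 tested genes 3 were called, all lower. Fgf2, a fibroblast growth factor that needs HS to bind its receptor, held 53.5 and 63.1 normalised reads with the inhibitor, against 85.2 and 132 in DMSO (log2 fold change -0.85 ± 0.19; limma, adjusted p = 0.0016). It lies opposite Nudt6. Fgf7, the keratinocyte growth factor, held 84.4 and 94.1, against 138 and 168 in DMSO (-0.77 ± 0.17; limma, adjusted p = 0.0013). Hbegf, the heparin-binding EGF-like growth factor, held 14.4 and 22.0, against 44.0 and 38.6 in DMSO (-1.16 ± 0.30; limma, adjusted p = 0.013). In all 3 genes the inhibitor libraries lay below the DMSO libraries, as in 20.5% of all tested genes. Naming the genes by their calls largely fixed this in advance, so it adds no support. Neither Fgf7 nor Hbegf has an annotated opposite-strand exon.

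With no minimum base mean the calls of all 8 genes were lost, with adjusted p from 0.051 (Vegfa) to 0.25 (Cxcl1) in limma. There 0.0954% of all genes were called higher and 0.0318% lower. With voom the call of Cxcl1 was lost (adjusted p = 0.084) and those of the other genes held. The direction held for all 8 genes without any 1 library, but some calls were lost. Fgf2 was not called without DMSO B (-0.54; limma, adjusted p = 0.27) or GSK3368712 A (adjusted p 0.12). Fgf7 was not called without GSK3368712 A (-0.69; limma, adjusted p = 0.125). Hbegf was not called without DMSO A (-1.07; limma, adjusted p = 0.15) or GSK3368712 A (-0.87; limma, adjusted p = 0.33). The authors' deposited table gave adjusted p of 0.38 for Fgf2 and 0.25 for Fgf7, and none for Hbegf. In the authors' deposited table Vegfa (0.0014), Thbs1 (0.0041) and Pdgfa (0.024) passed, and Cxcl10 (0.097) and Cxcl1 (0.57) did not. Of the 5 known beforehand, Pdgfa lies opposite 6330403L08Rik, Thbs1 opposite Gm29233 and Cxcl10 opposite Art3, while Vegfa and Cxcl1 have no annotated opposite-strand exon. Pdgfa (0.82 ± 0.15) kept its call without any 1 library, but not with no minimum base mean (limma, adjusted p = 0.054). Vegfa (-0.69 ± 0.13) missed it without GSK3368712 A (limma, adjusted p = 0.11) or B (0.055), with log2 fold changes of -0.67 and -0.72. Thbs1 (-0.70 ± 0.13) missed it without GSK3368712 B (-0.60; limma, adjusted p = 0.21), as did Cxcl10 (0.76 ± 0.15) without that library (0.67; limma, adjusted p = 0.077). Cxcl1 (0.50 ± 0.15) missed it without DMSO B (limma, adjusted p = 0.16), GSK3368712 A (0.25) or GSK3368712 B (0.40). The receptor gene Fgfr1 stood at 0.20 ± 0.14 on the log2 scale (limma, adjusted p = 0.63).

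**Figure D5:**
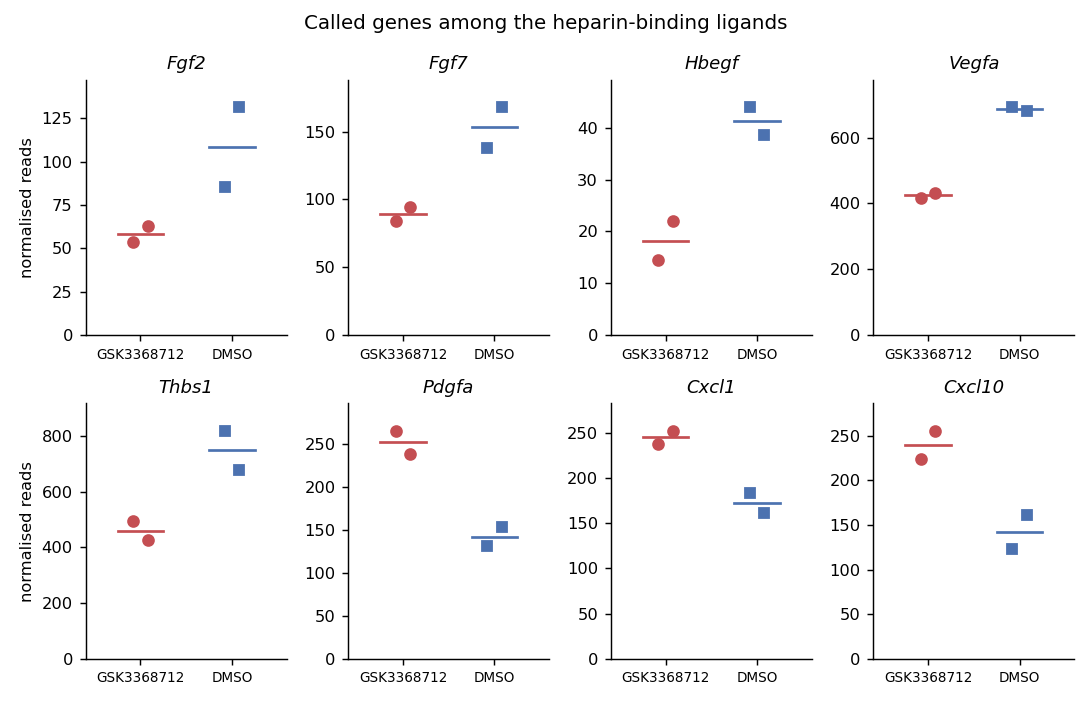
Normalised reads (vertical axes from 0, one scale per panel) of the 8 called genes among the heparin-binding ligands. Points are libraries, with GSK3368712 on the left and DMSO on the right, and lines are group means. Fgf2, Fgf7, Hbegf, Vegfa and Thbs1 are lower in both inhibitor libraries, and Pdgfa, Cxcl1 and Cxcl10 are higher.

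Markers of other cell types were read beside these values. Of 8 fibroblast markers 6 had values, and their summed normalised reads were 1709 and 1523 with the inhibitor, against 1172 and 1169 in DMSO. The collagen gene Col3a1 was the 1 of 6 called, and it rose. Over all tested genes 1.3% were called higher and 0.841% lower. Col1a1 (log2 fold change 0.43 ± 0.13; limma, adjusted p = 0.057) and Col1a2 (0.44 ± 0.14; limma, adjusted p = 0.056) just missed the threshold. Both were higher in both inhibitor libraries. The groups of Dcn and Pdgfrb overlapped, and Lum and Thy1 had no value. Pdgfra ran the other way, with both inhibitor libraries below both DMSO libraries, and did not pass (log2 fold change -0.53 ± 0.21; limma, adjusted p = 0.23). Of 7 leukocyte markers, Ptprc, Itgam and Cd3e had no value, and Csf1r, which lies opposite Hmgxb3, made up most of the sum (527 and 525 with the inhibitor, against 447 and 518 in DMSO). The 2 endothelial markers with values summed to at most 6.17 reads in a library. Of 4 melanocyte markers Pmel alone had a value, with 27.8 and 35.1 reads with the inhibitor, against 25.1 and 33.4 in DMSO. The part of the fibroblast or leukocyte markers in the values above was not tested.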

How the data were processed

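Per the labels' protocols the mRNA library kit keeps strand. The submitters' processing notes name mm10, HISAT2 2.1.0, SAMtools 1.2 and StringTie 1.3.0, without roles; annotation release and strand setting were not stated. The authors deposited 1 table with log2 values per library, headed logCPM. The mean of their antilogs is close to the base mean (median log2 difference -0.00313), so they were read as log2 normalised counts drawn toward the gene's mean. The authors' DESeq2 columns, per the file headers, hold the base mean (a signal: mean count over size factors), a log2 fold change and its error, a Wald score, and p-values with and without adjustment.

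Limma 3.58.1 (R 4.3.3, trend, group as the only term) was fitted to the deposited log2 values of the 8562 genes whose base mean reached 10, with Benjamini-Hochberg adjustment; calls are at adjusted p under 0.05, two-sided. The prior carried 182 degrees of freedom and the libraries 2, so the common spread dominates each call. Whole reads per library were recovered as the 4 whole numbers that give each base mean to a relative 2e-14, with size factors taken from genes with 2 reads in all. Every combination was searched for base means up to 330, and combinations near the deposited log2 values above that; 12575 genes, the 31 proteoglycan genes included, had a single solution and 3 had several and were left out of read-based values. Fold changes, standard errors and intervals are limma's on log2 (normalised reads + 1). The recovery and the fit were tested on simulated data. Exon lengths and opposite-strand exons are from GENCODE M21 (GRCm38), to which 51633 of 51826 gene IDs matched without their version.

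Genes described in full were those called, those with a base mean of at least 100 whose groups do not overlap, and the most abundant of each role. Some others, among them Chpf, Chsy1, Ext1 and Gpc4, were given with their reads though they did not meet this rule. Genes of the pathway lists were named if called, or by smallest p. The proteoglycan genes and the pathway lists were chosen with earlier results of these data known.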

Additional observations from a re-analysis of the deposited data

How the results depend on the processing

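The number of proteoglycan genes called higher was 1, and it was 0 with no minimum base mean, 0 in the authors' deposited table, 0 among genes with no opposite-strand exon (an alternative chosen after seeing the data), 2 with a minimum of 40, and from 0 to 2 when each library was left out. No proteoglycan gene was called lower under any of these, with 4 of 27 at an unadjusted p under 0.05 in either direction in limma, against 12.2% of all tested genes. Over all genes, 111 were higher and 72 lower, against 12 and 4 with no minimum, 16 and 10 in the authors' deposited table, and 50 and 39 among genes with no opposite-strand exon. With voom and scaling by library totals 71 were higher. With a library left out, from 42 to 178 were higher and from 21 to 76 lower; the lone library of a group is then assumed to vary like the other group.

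Of the 27 tested proteoglycan genes, 2, Chpf2 and Sulf2, were called under any alternative. Some alternatives could not change a sign. With no minimum, a minimum of 40 or the fit on normalised reads plus 1, the log2 fold change is the same number as in the main results. The sign of the log2 fold change was kept by 16 of the 27 genes under every alternative that gave them a value. There were 11 alternatives for 10 of these genes and 9 for the other 6, which lie under a base mean of 40 and have no adjusted p of the authors. The other 11 changed sign only when a library was left out: Chst11 (-0.36 to 0.00099), Dse (-0.45 to 0.080), Chsy1 (-1.02 to 0.069), Glce (-0.37 to 0.11), Ext1 (-0.13 to 0.26), Extl3 (-0.19 to 0.28), Gpc4 (-0.14 to 0.066), B3gat3 (-0.038 to 0.70), B4galt7 (-0.40 to 0.11), Fam20b (-0.0088 to 0.33) and Sdc3 (-0.33 to 0.24). The cause was not tested. Count models (edgeR and DESeq2) were not run on the recovered reads, which are rebuilt from base means rather than given as counts. No paired analysis was possible because the columns carry letters that the labels do not tie to replicate numbers; a block on the letters was not run. The small number of counted reads limits what can be seen. Over all genes the median base mean was 22.6, and limma's standard errors of the proteoglycan genes reached 0.44.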
